A study of Mus musculus with 60 samples.

Results

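Acute depletion of POLE4 in MCM2-2A cells was described from 6 RNA-seq libraries out of the 60 samples of the series, 3 labelled dTAG and 3 labelled DMSO, all collected after 24 h of treatment and before any retinoic acid. All 6 libraries came from E14JU mouse embryonic stem cells grown in serum and LIF, and all carried a degradation tag on POLE4 (POLE4-dTAG) together with the MCM2-2A mutation. The treated group (dPOLE4 MCM2-2A) received 1 µM dTAG for 24 h and the control group (Ctrl MCM2-2A) received DMSO for 24 h, so that MCM2-2A and the tag were shared by both groups. The MCM2-2A line was a single clone (labelled clone 2). A further 6 libraries of the parental POLE4-dTAG line with unmutated MCM2 (the WT background) at 24 h, and 6 of the MCM2-2A line after 96 h, were used only for comparison.

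POLE4 is an accessory subunit of DNA polymerase epsilon, the polymerase of the leading strand, and pairs with POLE3 in a histone-fold dimer that passes parental histones to the leading strand. MCM2 is a subunit of the replicative helicase with a histone-binding domain that passes parental histones to the lagging strand, and the MCM2-2A substitutions impair that binding. A dTAG degron lets a small molecule recruit a ubiquitin ligase to the tagged protein, so that the protein is lost within hours while its mRNA is not targeted. Replication-dependent histone genes supply new histones in S phase, are transcribed from clusters, and give mRNAs that end in a stem-loop rather than a poly(A) tail. The libraries were made from rRNA-depleted total RNA and therefore hold these mRNAs.

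The 6 libraries held 13683171 to 46609151 counts, with the 2 replicate 3 libraries the deepest. Repeats took 7.30 to 8.73% of counts. Mitochondrially encoded transcripts took 1.06%, 2.29% and 2.24% in Ctrl MCM2-2A replicates 1 to 3 and 0.986%, 1.41% and 2.50% in dPOLE4 MCM2-2A, which set the replicate 1 pair apart at the low end. The summed level of 10 embryonic stem cell markers was 4541 to 5187 CPM (counts per 1000000 of the effective library size), and 0 of the 10 were called. Summed markers of other cell types were low, at 226 to 275 CPM for endoderm, 159 to 199 CPM for neural cells and 36.1 to 47.3 CPM for fibroblasts. Trophoblast markers summed to 126 to 145 CPM in Ctrl MCM2-2A and 156 to 166 CPM in dPOLE4 MCM2-2A. Pole4 RNA did not pass the test, at 32.3, 31.9 and 31.0 CPM in Ctrl MCM2-2A and 27.2, 30.2 and 33.2 CPM in dPOLE4 MCM2-2A (log2 fold change -0.06 ± 0.07 SE, edgeR adjusted p = 0.673). Since dTAG acts on the protein, Pole4 RNA does not check the labels. Mcm2 did not pass either (log2 fold change -0.08 ± 0.05, edgeR adjusted p = 0.391).

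The question of the comparison was which transcripts differed within 24 h of losing POLE4 in cells that already lacked the MCM2 histone-binding function. Of 18171 genes and repeat subfamilies tested, 143 were called, which is 0.787%. A feature was called at an adjusted p below 0.01 and a log2 fold change above 0.58 in size, from edgeR's quasi-likelihood test with the replicate number as a block. Of these, 86 were higher (0.473%) and 57 were lower (0.314%) in dPOLE4 MCM2-2A. Replication-dependent histone genes made up 26 of the 57 lower features. The 86 higher features were mostly weakly expressed, with 46 of them below 5 CPM in Ctrl MCM2-2A. The total depended on the pairing, with 13 called features without the block (0.0715%), of which 4 were higher (0.022%) and 9 lower (0.0495%), all 13 among the 143. With no fold cutoff the blocked fit gave 683 features (3.76%). DESeq2 called 54 with the block (0.297%) and 83 without it (0.457%), of which 46 were lower (0.253%). Without the replicate 1 pair 107 were called, without the replicate 2 pair 25 and without the replicate 3 pair 250.

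Replication-dependent histone mRNAs fell as a group. Of 67 genes measured and tested, 26 were called lower and 0 higher, where 0.314% and 0.473% of all features were. Of the 67, 66 had a negative log2 fold change, and the median was -0.53 against 0.005 over all features. Without the fold cutoff, 53 of the 67 passed the edgeR test, all lower, where 1.7% of all features passed in that direction. The lowest Ctrl MCM2-2A library was above the highest dPOLE4 MCM2-2A library for 51 of the 67, against 9.48% of all features. Read as a share of all counts, these genes took 0.880%, 0.749% and 0.695% in Ctrl MCM2-2A and 0.577%, 0.553% and 0.576% in dPOLE4 MCM2-2A. The treated libraries lay close together while the controls were spread, and the groups did not overlap. Summed over the 67 genes the level was 71.0% of Ctrl MCM2-2A (5605 ± 154 against 7899 ± 1106 CPM, SD, n = 3, exact permutation p = 0.1, two-sided, the smallest that 3 against 3 allows). The ratio within a pair was 0.625, 0.717 and 0.811 in pairs 1 to 3, so the pair with the low mitochondrial share also had the largest fall, and the part of the mitochondrial share in the result was not tested. Only 3 of the 67 were called without the block, 10 without the replicate 1 pair, 7 without the replicate 2 pair and 43 without the replicate 3 pair, with the median between -0.71 and -0.40 in these fits. In bulk RNA, fewer cells in S phase and less histone mRNA per cell cannot be told apart. The study reports an unchanged cell cycle distribution after POLE4 depletion in this line, measured by microscopy at a later time than these libraries.

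The falls differed in size between histone classes. H2B genes, whose product pairs with H2A, had 14 of 18 called lower with a median of -0.71, and H2A genes 8 of 18 with a median of -0.55. Linker histone H1 genes had 3 of 6 called lower with a median of -0.59. H3 genes had 1 of 12 called (median -0.48) and H4 genes 0 of 13 (median -0.35), although 9 and 8 of them passed the edgeR test without the fold cutoff. Summed levels were 63.9% of Ctrl MCM2-2A for H2B, 66.1% for H2A, 68.7% for H1, 71.4% for H3 and 79.7% for H4 (exact permutation p = 0.1 for each of the first 4 classes and 0.2 for H4, two-sided, n = 3). In each class the ratio was lowest in pair 1 and highest in pair 3, with 0.500, 0.684 and 0.755 for H2B and 0.766, 0.778 and 0.862 for H4. No difference between classes was tested.

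**Figure D1:**
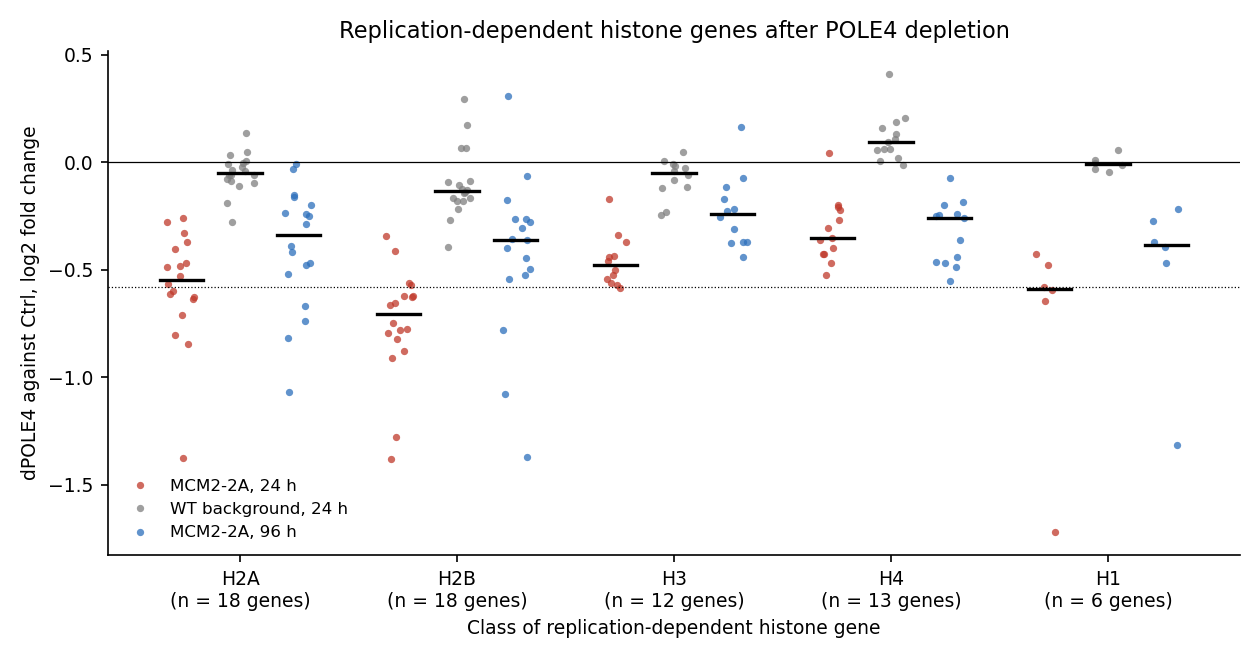
Log2 fold change of dPOLE4 against Ctrl for each replication-dependent histone gene, by class, in MCM2-2A cells at 24 h (red), in the WT background at 24 h (grey) and in MCM2-2A cells at 96 h (blue). Each point is a gene, black bars are medians and the dotted line marks -0.58, the fold cutoff. The red points lie below 0 with 1 exception, an H4 gene. The grey medians run from -0.13 for H2B to 0.09 for H4.

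The sequence feature that defines these mRNAs is the stem-loop near their 3′ end. It was searched in the annotated GENCODE M21 transcripts (GRCm38) as a 16-base run of GG, any 2 bases, CTTTT, any base, AG, any 2 bases and CC, with the first 6 bases able to pair with the last 6, and was found in 44 of the 67 replication-dependent genes (65.7%), in 1 of 11 replacement histone genes (H2afx) and in 7 of 17185 other tested genes (0.0407%). The median log2 fold change was -0.53 in the 44 genes and -0.53 in the 23 whose annotated transcripts hold no match. A missing match says only that these letters are not in the annotated transcript. The following sites are shown because each belongs to the gene with the largest fall of its class (H2A, H2B, H3, H4 and H1) among the genes with a match, with the stem-loop in capitals. The capitals lie at chr13:23570668-23570683 (-), chr11:58949349-58949364 (+), chr13:23761890-23761905 (-), chr6:136803998-136804013 (-) and chr13:23696525-23696540 (+), downstream of the annotated coding sequence in the 3′ UTR.
Hist1h2ae: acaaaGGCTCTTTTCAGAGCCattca
Hist3h2ba: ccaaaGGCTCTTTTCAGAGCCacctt
Hist1h3a: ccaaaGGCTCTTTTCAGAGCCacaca
Hist4h4: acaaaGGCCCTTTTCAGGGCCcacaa
Hist1h1t: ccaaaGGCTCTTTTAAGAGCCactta
The most frequent form, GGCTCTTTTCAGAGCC, was present in 26 genes with a median log2 fold change of -0.62. The form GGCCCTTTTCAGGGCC, as in Hist4h4, was present in 7 genes with a median of -0.35. All 7 of these are H4 genes and none of the 26 is, so the form cannot be told apart from the histone class.

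Promoters were read from RefSeq (GRCm38.p6) for 62 of the 67 genes and searched on both strands for CCAAT (the NF-Y box), TATAAA and the octamer ATTTGCAT in the 250 bases before the start site. CCAAT was present in 51 of 62 (82.3%) against 33.8% of 32851 promoters, in all 18 H2A, all 16 H2B and all 6 H1 promoters, and in 3 of 12 H4 promoters. TATAAA was present in 46.8% against 12.4%, and ATTTGCAT in 13 of 62 against 526 of 32851. Hist4h4, the H4 gene with the largest fall, held none of the 3 motifs in the 150 bases before its start site. The 6 windows below cover the 150 bases before the start site, with any of the 3 motifs or its reverse complement in capitals. The windows are those of the 4 genes with the largest falls, of Hist1h2bm as a core H2B gene, and of Hist1h4d as an H4 gene with CCAAT and TATAAA. They span chr13:23695661-23695810 (+), chr13:23934157-23934306 (-), chr13:23934287-23934436 (+), chr11:58948761-58948910 (+), chr13:21721894-21722043 (+) and chr13:23581418-23581567 (+).
Hist1h1t: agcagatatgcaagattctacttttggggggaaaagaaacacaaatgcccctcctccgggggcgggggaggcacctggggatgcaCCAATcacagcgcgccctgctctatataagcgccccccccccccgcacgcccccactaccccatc
Hist1h2ba: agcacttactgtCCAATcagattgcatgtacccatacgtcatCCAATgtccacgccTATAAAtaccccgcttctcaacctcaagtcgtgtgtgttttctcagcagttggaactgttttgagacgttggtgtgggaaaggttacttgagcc
Hist1h2aa: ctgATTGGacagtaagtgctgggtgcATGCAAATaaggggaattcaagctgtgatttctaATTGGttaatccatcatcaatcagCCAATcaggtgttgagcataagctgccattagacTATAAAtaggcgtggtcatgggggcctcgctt
Hist3h2ba: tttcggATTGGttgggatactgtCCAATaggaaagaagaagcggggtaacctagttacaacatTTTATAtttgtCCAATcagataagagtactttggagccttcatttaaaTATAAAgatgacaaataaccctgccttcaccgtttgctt
Hist1h2bm: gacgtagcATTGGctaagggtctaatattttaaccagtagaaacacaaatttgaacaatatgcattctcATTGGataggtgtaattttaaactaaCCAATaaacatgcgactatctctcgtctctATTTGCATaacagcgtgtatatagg
Hist1h4d: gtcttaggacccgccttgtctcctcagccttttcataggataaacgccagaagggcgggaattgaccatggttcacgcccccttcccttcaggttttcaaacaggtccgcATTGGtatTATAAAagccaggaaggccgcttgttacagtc
Hist1h2ba and Hist1h2aa are divergent neighbours whose windows meet at their far ends, and both had a log2 fold change of -1.38.

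The largest falls among histone genes were in variants known from the male germ line and in the small Hist3 cluster. Hist1h1t, the testis linker histone, was at 6.32, 5.10 and 5.90 CPM in Ctrl MCM2-2A and 2.13, 0.830 and 2.03 CPM in dPOLE4 MCM2-2A (log2 fold change -1.72 ± 0.18 SE, edgeR adjusted p = 1.13e-05). All 3 controls lay above all 3 treated libraries. Hist1h2ba, the testis H2B, was at 16.6, 10.9 and 11.9 CPM against 6.56, 3.81 and 4.67 CPM (-1.38 ± 0.11, edgeR adjusted p = 3.77e-07). Hist1h2aa, its divergent H2A partner, was at 18.3, 13.7 and 15.5 CPM against 6.72, 4.98 and 6.36 CPM (-1.38 ± 0.10, edgeR adjusted p = 2.12e-07). Hist1h1t and Hist1h2ba lost their call without the block, at edgeR adjusted p = 0.0149 and 0.0166. Hist1h1t received no adjusted p from DESeq2 with the block. Both groups were separate for all of these genes.

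The Hist3 cluster on chromosome 11 (GRCm38 chr11:58948920-58956830) had all 3 of its measured histone genes called lower. Hist3h2ba, an H2B gene, was at 43.9, 37.7 and 36.0 CPM in Ctrl MCM2-2A and 16.9, 14.0 and 16.6 CPM in dPOLE4 MCM2-2A (-1.28 ± 0.08, edgeR adjusted p = 2.4e-08), the lowest p of the comparison. Hist3h2bb-ps, annotated as a pseudogene, went from 8.91, 7.76 and 9.50 CPM to 2.58, 2.699 and 3.91 CPM (-1.47 ± 0.14). Hist3h2a went from 82.9, 64.1 and 60.2 CPM to 46.5, 36.2 and 35.7 CPM (-0.80 ± 0.06) and lost its call without the block (edgeR adjusted p = 0.0256). The call on Trim17 (-0.79) is uncertain, because it overlaps Hist3h2a on the same strand with near-identical counts and its annotated transcripts hold the Hist3h2a stem-loop. Gm12260 (-1.01) overlaps Trim17 as well.

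In the Hist1 cluster on chromosome 13 (chr13:21715763-23934851), 54 of 55 tested histone genes were lower and 23 were called. None of the 11 other tested genes within the same span was called, 5 of them were lower, and their median was 0.07. In the Hist2 cluster on chromosome 3 (chr3:96219865-96270132), all 10 histone genes were lower and 1 was called, Hist2h3b, an H3 gene that went from 144, 119 and 87.3 CPM to 80.4, 70.3 and 76.4 CPM (-0.58 ± 0.09, edgeR adjusted p = 0.000363, and 0.0877 without the block, where the call was lost). The 6 other tested genes inside that span were also lower, with a median of -0.33, and at least 1 of them, Gm20628, overlaps a histone gene. The lowest of the 6, Gm20634 (-0.50, edgeR adjusted p = 0.000363), is uncertain as well, because its annotated transcripts hold a match to the histone stem-loop.

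Among the canonical somatic genes, Hist1h2bh fell from 91.6, 76.5 and 79.2 CPM to 35.1, 46.2 and 49.8 CPM (-0.91 ± 0.09, edgeR adjusted p = 8.42e-06). Hist1h2bm fell from 59.0, 58.2 and 50.7 CPM to 25.8, 30.2 and 34.0 CPM (-0.88 ± 0.09). Hist1h2ae fell from 65.4, 59.2 and 55.4 CPM to 25.3, 31.3 and 42.5 CPM (-0.84 ± 0.11), and Hist1h2bp from 27.5, 26.98 and 29.2 CPM to 10.1, 17.3 and 19.98 CPM (-0.82 ± 0.12). In all 4 genes the groups were separate and dPOLE4 MCM2-2A replicate 1 was the lowest library. Hist1h2bm kept its call without the block. Hist1h2bh, Hist1h2ae and Hist1h2bp lost theirs, at edgeR adjusted p = 0.0133, 0.0386 and 0.0806. Hist1h2ae and Hist1h2bp were also not called by DESeq2 with the block (DESeq2 adjusted p = 0.0263 and 0.0276). The linker genes Hist1h1c (381, 298 and 283 CPM against 209, 194 and 206 CPM, -0.65 ± 0.06) and Hist1h1e (281, 216 and 211 CPM against 170, 153 and 143 CPM, -0.60 ± 0.05) fell in every pair. Neither linker gene was called without the block (edgeR adjusted p = 0.0229 and 0.0419). Hist1h1e overlaps Hist1h2be (-0.79 ± 0.11) on the same strand, so the reads of the pair cannot be fully separated. The 1 histone gene that was not lower, Hist1h4m, was at 26.3, 17.4 and 12.5 CPM against 26.9, 18.0 and 12.9 CPM (0.04 ± 0.08, edgeR adjusted p = 0.799).

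Near-identical coding sequences within a histone class and multimapped alignments mean that counts can be shared among paralogs, so a value for a single member is less certain than the sum of its class.

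Replacement histone genes, most of which are expressed outside S phase and give polyadenylated mRNAs, had 1 of 11 called lower and a median of -0.07. Of all features, 0.314% were called lower. The called gene was H1f0, the linker histone of quiescent and differentiated cells, which went from 38.9, 27.4 and 25.9 CPM to 19.9, 16.7 and 14.5 CPM (-0.85 ± 0.07, edgeR adjusted p = 1.15e-06). It was lower by a similar ratio in each pair, and without the block its edgeR adjusted p was 0.0419. H3f3a and H3f3b, which encode H3.3, and Cenpa, the centromeric H3, did not pass the test, at -0.10 ± 0.05, 0.003 ± 0.05 and -0.05 ± 0.05. Of the 11 genes, 8 were lower and 3 higher, and 4 were lower with separate groups, against 9.48% of all features. Among these 4, H1fx (-0.43 ± 0.10, edgeR adjusted p = 0.0140) and H2afx (-0.37 ± 0.09, edgeR adjusted p = 0.0124) did not pass the test. H3f3b took either sign under other scalings.

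Genes that act on histones and replication did not show calls. None of 18 factors of histone mRNA synthesis and processing (median -0.07), 32 histone chaperones (median -0.05) and 50 DNA replication genes (median -0.03) was called. Without the fold cutoff, 1 member of these lists passed, Orc3, a subunit of the origin recognition complex, which went from 54.6, 58.8 and 59.5 CPM to 43.3, 44.1 and 53.4 CPM (-0.29 ± 0.06, edgeR adjusted p = 0.00655). G2/M genes had 0 of 25 called, with 24 lower and a median of -0.13. Of the 25, 5 passed without the fold cutoff, all lower, where 1.7% of all features passed lower. Plk1, a mitotic kinase, was at 232, 192 and 187 CPM against 187, 162 and 154 CPM (-0.28 ± 0.05, edgeR adjusted p = 0.00175). These are values of transcripts, and cell cycle phase was not measured in these libraries.

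**Figure D2:**
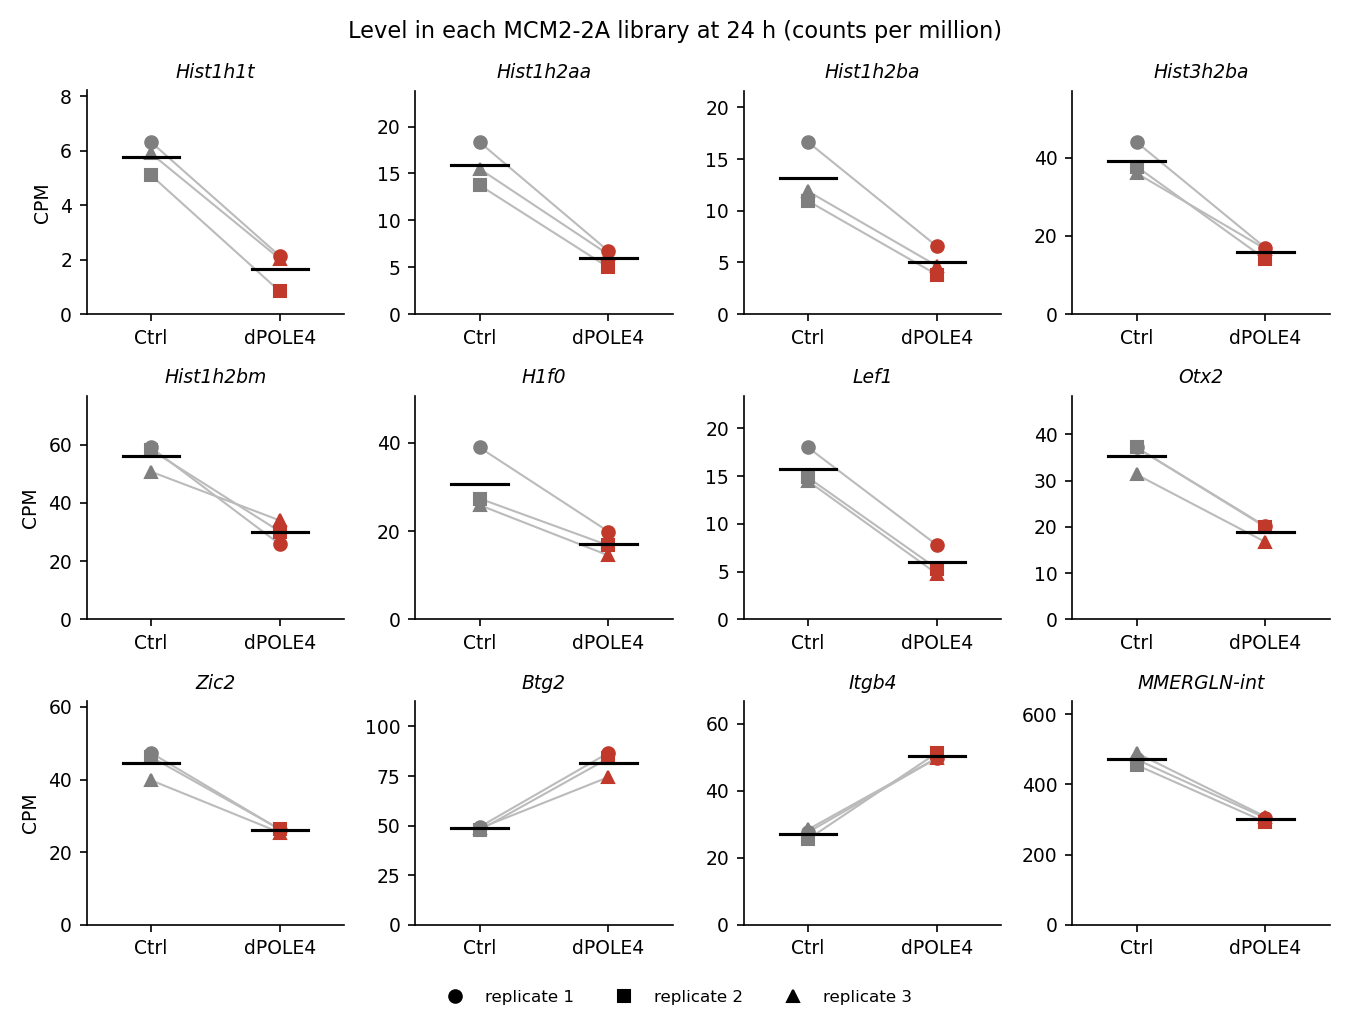
Level in CPM of 12 features in each MCM2-2A library at 24 h. Symbols mark replicates, grey lines join the libraries of a pair and black bars are group means. In each panel the 3 Ctrl and the 3 dPOLE4 libraries do not overlap.

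Formative pluripotency genes, which mark the exit from the naive state, were lower in part. Of the 8 genes that the study lists for this state, 7 were tested and 3 were called lower, where 0.314% of all features were called lower. The study describes these genes in these same samples, so their direction is not independent evidence. Lef1, a transcription factor of the Wnt pathway, was at 18.0, 14.9 and 14.5 CPM in Ctrl MCM2-2A and 7.79, 5.33 and 4.77 CPM in dPOLE4 MCM2-2A (-1.44 ± 0.11, edgeR adjusted p = 2.13e-07). Otx2, a regulator of the formative state, was at 37.2, 37.2 and 31.3 CPM against 20.2, 20 and 16.7 CPM (-0.89 ± 0.07, edgeR adjusted p = 2.13e-07). Zic2, a zinc-finger factor, was at 47.3, 46.2 and 39.8 CPM against 26.2, 26.3 and 25.4 CPM (-0.76 ± 0.07, edgeR adjusted p = 1.09e-06). The groups were separate for all 3 genes, and all 3 were also called without the block.

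The other members of that list did not follow as a set. Pou3f1 (-0.22 ± 0.07, edgeR adjusted p = 0.0456), Fgf5 (-0.30 ± 0.23) and Sox4 (-0.06 ± 0.06) were not called, and Krt18 was above control (0.30 ± 0.06, edgeR adjusted p = 0.00332) without reaching the fold cutoff. Of 22 further formative genes, 1 was called lower, Zic5, where 0.314% of all features were called lower. The study also names Zic5 as lower in these samples, so its direction is not independent evidence. Zic5, the neighbour of Zic2 on chromosome 14, went from 41.4, 41.5 and 38.7 CPM to 28.9, 24.6 and 26.1 CPM (-0.60 ± 0.07, edgeR adjusted p = 1.91e-05). The median of the 22 was -0.21. Without the fold cutoff 7 of them passed lower and 1 higher, where 1.7% and 2.06% of all features did so. Zic5 lost its call without the block, at edgeR adjusted p = 0.0139.

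Naive pluripotency genes had 0 of 27 called and a median of -0.08. Gbx2 had the lowest p, at 29.5, 24.1 and 23.0 CPM against 22.9, 16.7 and 18.5 CPM (-0.39 ± 0.07, edgeR adjusted p = 0.00259). Nanog (0.08 ± 0.06, edgeR adjusted p = 0.403) and Pou5f1 (-0.03 ± 0.06, edgeR adjusted p = 0.825) did not pass. The receptor of LIF, the cytokine that sustains the naive state, was called lower, with Lifr at 173, 190 and 186 CPM against 108, 130 and 125 CPM (-0.60 ± 0.05, edgeR adjusted p = 1.15e-06). Lif itself was called higher, from 7.29, 7.76 and 8.84 CPM to 12.1, 12.6 and 12.4 CPM (0.62 ± 0.10, edgeR adjusted p = 0.001). Lif and Lifr were named after their values were seen, and neither was called without the block (edgeR adjusted p = 0.0364 and 0.0145).

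Wnt pathway genes moved in both directions, with 1 of 25 called higher and 1 lower and a median of -0.03. Over all features, 0.473% were called higher and 0.314% lower. The lower gene was Lef1. The higher gene was Wnt3, a ligand, at 2.37, 2.00 and 2.26 CPM against 3.81, 4.22 and 3.55 CPM (0.76 ± 0.17, edgeR adjusted p = 0.00985). The ligands Wnt6 and Wnt9a, outside the list and named after their values were seen, were also called higher. Wnt6 was at 7.55, 5.47 and 5.76 CPM against 12.4, 9.96 and 9.36 CPM (0.74 ± 0.11), and Wnt9a at 3.03, 1.92 and 2.14 CPM against 5.16, 3.67 and 3.70 CPM (0.81 ± 0.16). FGF/ERK genes had 0 of 21 called, with Etv1, a target of the pathway, the nearest (-0.54 ± 0.08, edgeR adjusted p = 0.000398). Nodal genes had 0 of 14 called.

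Targets of p53, the factor induced by DNA damage and replication stress, were mostly above control by small amounts. Of 40 genes tested, 2 were called higher and 0 lower, where 0.473% and 0.314% of all features were. Of the 40, 35 had a positive log2 fold change, and the median was 0.26 against 0.005 over all features. Without the fold cutoff 17 passed higher and 1 lower, where 2.06% and 1.7% of all features did so. Btg2, an antiproliferative cofactor, was at 49.3, 47.8 and 48.7 CPM in Ctrl MCM2-2A and 86.7, 83.9 and 74.5 CPM in dPOLE4 MCM2-2A (0.74 ± 0.06, edgeR adjusted p = 4.44e-07). Tap1, a peptide transporter of antigen presentation, was at 10.7, 8.35 and 10.4 CPM against 15.3, 14.2 and 15.5 CPM (0.60 ± 0.09, edgeR adjusted p = 0.000546). Tap1 lost its call without the block (edgeR adjusted p = 0.0428), and Btg2 did not.

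Several core p53 targets passed the test without reaching the fold cutoff. Mdm2, the ubiquitin ligase of p53, was at 153, 144 and 151 CPM against 210, 180 and 198 CPM (0.39 ± 0.05, edgeR adjusted p = 0.000113). Cdkn1a, the inhibitor of cyclin-dependent kinases, was at 44.2, 43.8 and 38.2 CPM against 50.9, 51.7 and 49.5 CPM (0.28 ± 0.06, edgeR adjusted p = 0.00678). The groups did not overlap for either gene. The apoptotic genes Perp (0.56 ± 0.07), Bbc3 (0.44 ± 0.06) and Pmaip1 (0.42 ± 0.07) and the regulators Plk2 (0.46 ± 0.06), Phlda3 (0.44 ± 0.06) and Ccng1 (0.28 ± 0.05) passed as well. Bax (-0.04 ± 0.05, edgeR adjusted p = 0.702), Sesn2 (0.05 ± 0.05) and Aen (0.03 ± 0.05) did not, and Sulf2 passed in the lower direction (-0.23 ± 0.05, edgeR adjusted p = 0.00823).

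Epithelial genes had 3 of 25 called higher and 0 lower, with a median of 0.29 and 9 passing higher without the fold cutoff, where 0.473% of all features were called higher and 2.06% passed higher. Trophoblast markers moved with them: all 7 tested were higher, 1 was called and 3 passed higher without the fold cutoff, the median was also 0.29, and their part in the result was not tested. The lists share members that passed, with Krt7 in both the epithelial and the trophoblast list and Perp in both the epithelial and the p53 list. These lists were written with earlier results of these data known, and the study names Itgb4 as higher in these samples. The counts of the lists are therefore not independent evidence. Itgb4, the integrin of hemidesmosomes, was at 27.7, 25.6 and 28.5 CPM against 49.8, 51.3 and 49.8 CPM (0.87 ± 0.06, edgeR adjusted p = 2.11e-07). Sbsn, suprabasin, was at 5.00, 4.44 and 5.20 CPM against 11.3, 9.83 and 9.93 CPM (1.06 ± 0.12, edgeR adjusted p = 1.91e-05). It overlaps Tmem147os, also called higher. Lamb3, a chain of laminin, was at 5.66, 4.07 and 4.37 CPM against 7.28, 6.09 and 7.46 CPM (0.59 ± 0.13, edgeR adjusted p = 0.00881). The keratins Krt7 (0.43 ± 0.08) and Krt18 (0.30 ± 0.06) passed the test below the fold cutoff, whereas the adhesion genes Cdh1 and Epcam were slightly below control and were not called.

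**Figure D3:**
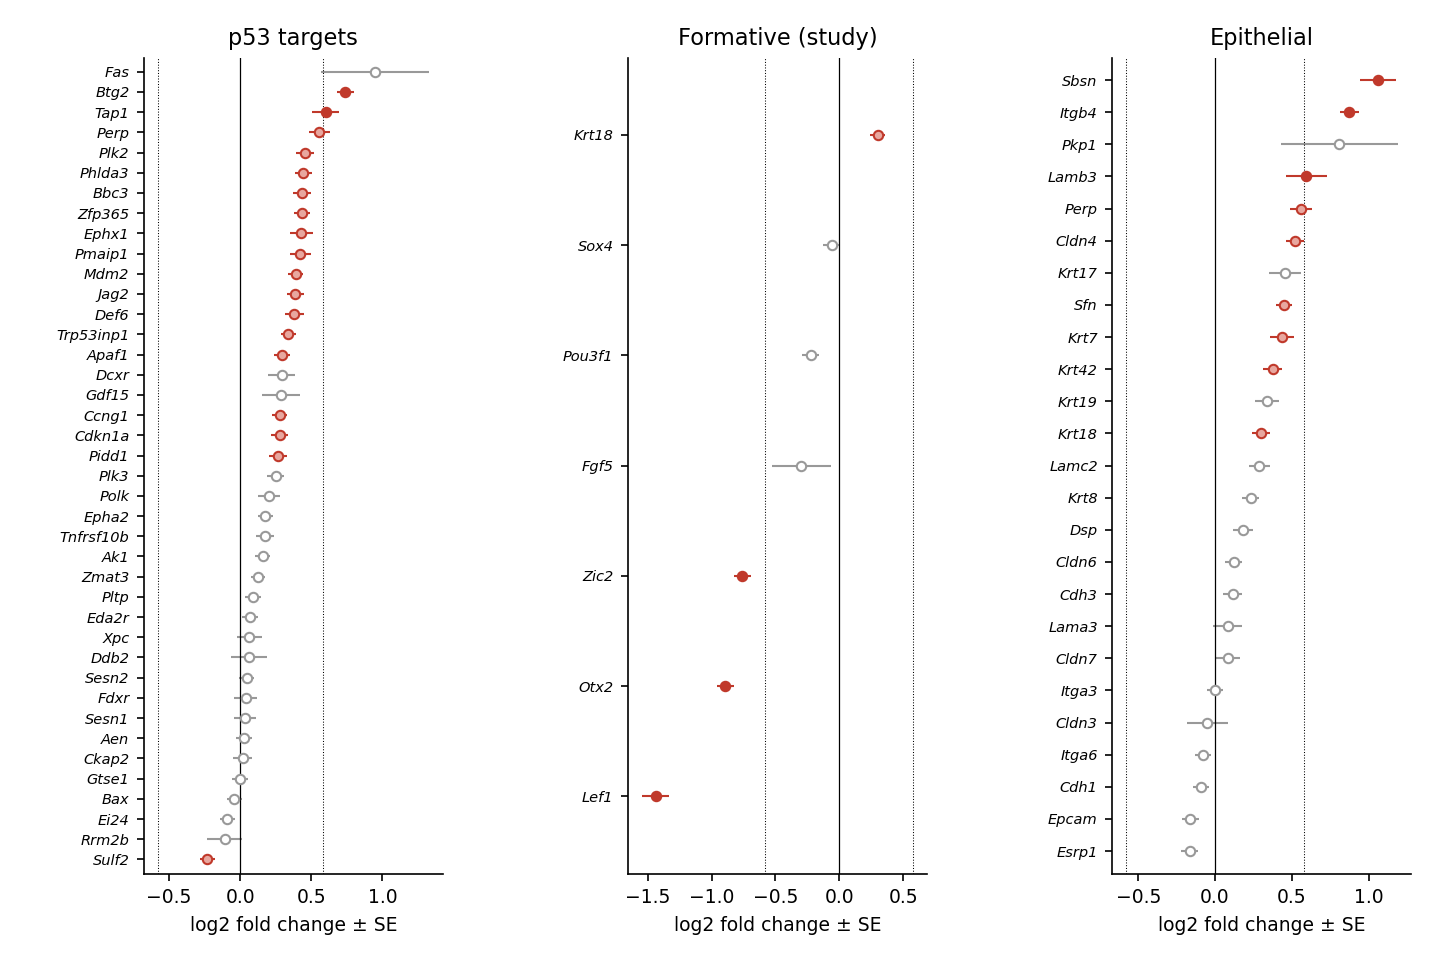
Fitted log2 fold change ± SE of each tested p53 target, formative gene of the study's list and epithelial gene, dPOLE4 MCM2-2A against Ctrl MCM2-2A at 24 h. Filled red points were called, pale red points passed the adjusted p without the fold cutoff, open points did not pass, and dotted lines mark the cutoff of 0.58 in size. Of the p53 targets, 2 are filled and 35 of 40 lie above 0.

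Among immediate early genes, which respond to growth factors and stress, 2 of 15 were called higher, Btg2 and Jun. Of all features 0.473% were called higher, and Btg2 is also counted among the p53 targets. This list too was written with earlier results of these data known. Jun, a subunit of AP-1, was at 10.2, 11.4 and 10.9 CPM against 16.8, 18.2 and 17.4 CPM (0.69 ± 0.09, edgeR adjusted p = 7.13e-05). Abcb1b, a multidrug efflux transporter, was at 56.6, 52.9 and 60.8 CPM against 86.4, 83.9 and 98.6 CPM (0.66 ± 0.06, edgeR adjusted p = 7.26e-07). Both genes were separate between groups, and neither was called without the block (edgeR adjusted p = 0.0144 and 0.0112). Stress genes of the ATF4 pathway had 0 of 18 called, with Ddit4 nearest (0.47 ± 0.06, edgeR adjusted p = 4.97e-05) and its groups overlapping.

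The largest rises by fold were in weakly expressed genes. Msln, mesothelin, was at 1.93, 2.44 and 2.54 CPM against 5.72, 5.88 and 4.96 CPM (1.21 ± 0.16, edgeR adjusted p = 0.000141). Tnnt3, a skeletal muscle troponin, was at 3.03, 2.51 and 3.88 CPM against 7.45, 6.92 and 6.99 CPM (1.12 ± 0.15, edgeR adjusted p = 0.000113). Loxl4, Lsp1, Mst1 and Tie1 rose by log2 1.02 to 1.14 from group means near 1 to 3 CPM. Krt4 (1.85 ± 0.41) was below 1 CPM in every library, and the small RNA genes Mir6236 (2.22 ± 0.36) and Gm24270 (1.29 ± 0.26) are annotated as miRNA genes, were near 1 CPM on average in Ctrl MCM2-2A and received no adjusted p from DESeq2 with the block. The median Ctrl MCM2-2A level was 4.74 CPM for genes called higher, 40.2 CPM for genes called lower and 12.4 CPM for all tested genes, and the median GC content of the genes called higher was 54.5% against 49.96% for all. Of 141 called genes, 33 overlapped another tested gene. Among lower genes outside the lists, Serpina3m, a serine protease inhibitor, went from 3.16, 3.18 and 2.61 CPM to 1.12, 1.11 and 1.20 CPM (-1.31 ± 0.21, edgeR adjusted p = 0.000689). The noncoding genes Gm39132 (-2.27 ± 0.48), Gm2824 (-1.78 ± 0.38) and Gm43549 (-1.07 ± 0.24) were below 3 CPM in every library.

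Genes of chromatin repression were not called. Polycomb genes had 0 of 29 called (median -0.06), with Jarid2, a cofactor of PRC2, at 777, 759 and 766 CPM against 653, 616 and 615 CPM (-0.29 ± 0.05, edgeR adjusted p = 0.00219). Genes of H3K9 methylation had 0 of 18 called and a median of -0.12, with Resf1 nearest (-0.33 ± 0.07, edgeR adjusted p = 0.00418). Germline genes silenced by DNA methylation had 0 of 20 called. Of these, Tex19.1 was at 95.2, 86.3 and 95.4 CPM against 147, 125 and 128 CPM (0.53 ± 0.06, edgeR adjusted p = 1.09e-05), just under the fold cutoff. Genes of the 2-cell stage had 0 of 17 called and a median of 0.03 at 24 h. At 96 h, 16 of 17 were called higher with a median of 1.31, where 1.25% of features were called higher. Hox genes had 0 of 8 tested members called and 0 passing without the fold cutoff, although all 8 were higher (median 0.33), at a summed level of 10.6 to 13.5 CPM in Ctrl MCM2-2A and 13.6 to 16.1 CPM in dPOLE4 MCM2-2A. Retinoic acid response genes had 0 of 14 called, with 12 higher and a median of 0.22, and the 1 that passed without the fold cutoff was lower.

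Repeat subfamilies gave 2 calls. None of 136 LINE subfamilies was called (median 0.04), and of 493 LTR subfamilies 1 was called higher and 1 lower (median 0.02). MMERGLN-int, the internal region of an endogenous retrovirus family, was at 471, 455 and 490 CPM in Ctrl MCM2-2A and 305, 293 and 308 CPM in dPOLE4 MCM2-2A (-0.65 ± 0.05, edgeR adjusted p = 3.88e-07). The groups were far apart relative to their spread, and the call held without the block (edgeR adjusted p = 0.00606). RMER12B went from 4.35, 6.36 and 6.63 CPM to 8.85, 8.10 and 9.34 CPM (0.61 ± 0.13, edgeR adjusted p = 0.00627) and was not called without the block.

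Of 13 mitochondrially encoded genes, 3 were called lower, where 0.314% of all features were, but the groups of these 3 overlapped. mt-Co2, a subunit of cytochrome oxidase, was at 236, 541 and 383 CPM against 119, 272 and 328 CPM (-0.72 ± 0.10). mt-Atp6 (-0.62 ± 0.07) and mt-Atp8 (-0.95 ± 0.20), subunits of the ATP synthase, overlap each other in the genome. Summed over the 13 genes the ratio within a pair was 0.960, 0.635 and 1.01, and the exact permutation test gave p = 0.6. The fall was not particular to MCM2-2A cells. In the WT background all 13 genes were lower and 2 were called, where 0.0337% of features were called there. Their median was -0.48 in the WT background and -0.28 in MCM2-2A. Of the markers of other cell types, Gata3 (trophoblast, 3.29, 2.96 and 2.63 CPM against 5.55, 4.84 and 4.79 CPM, 0.79 ± 0.15) was called higher and Cubn (endoderm, 10.2, 6.65 and 13.6 CPM against 5.83, 5.12 and 6.36 CPM, -0.86 ± 0.13) lower. Their part in the results above was not tested.

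**Figure D4:**
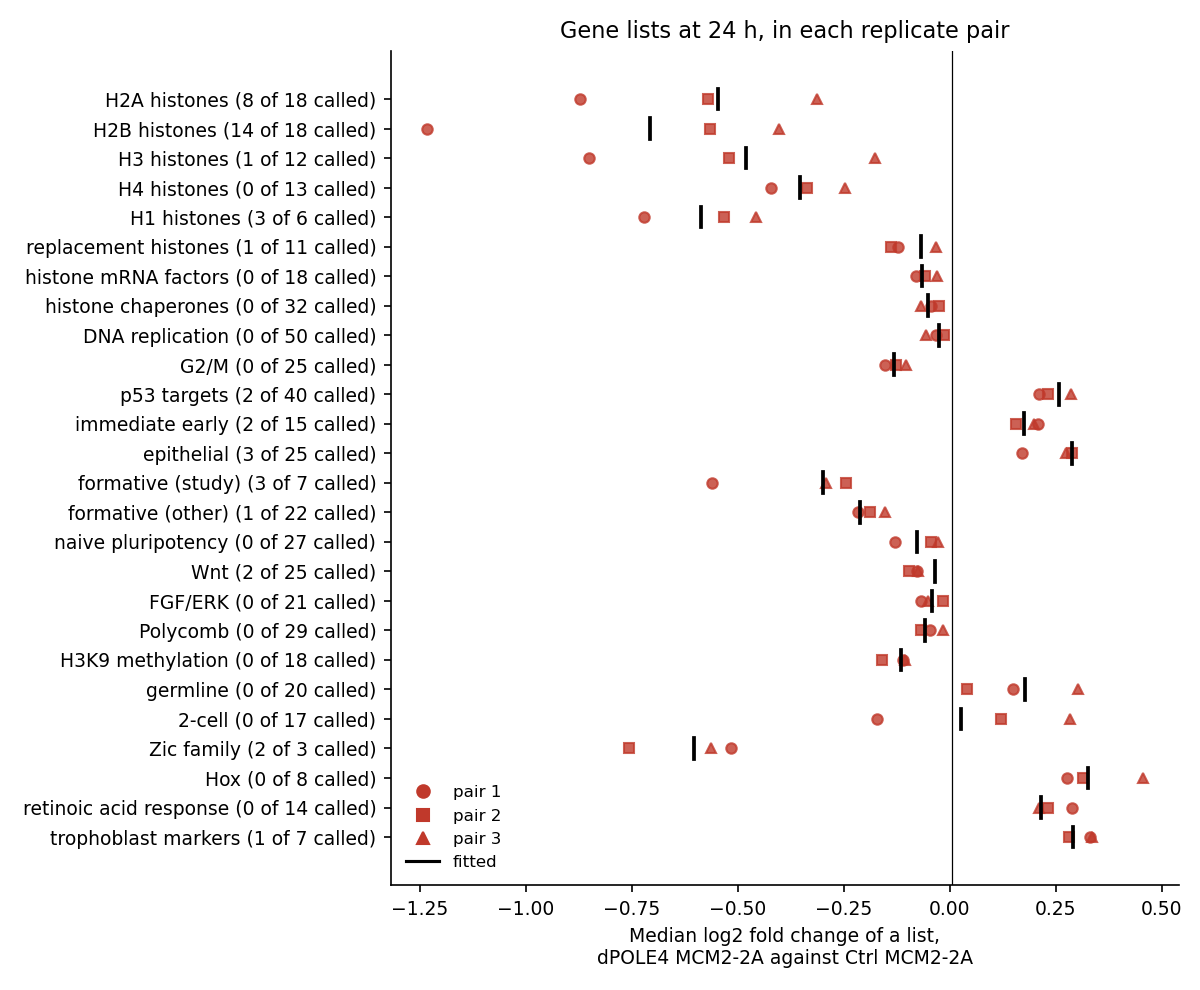
Median log2 fold change of each gene list, dPOLE4 MCM2-2A against Ctrl MCM2-2A at 24 h. Red symbols give the median within each replicate pair (log2 CPM difference), black bars the median of the fitted values, the vertical line the median of all features, and brackets the number of members called. The 5 histone classes lie to the left in all 3 pairs, as do both formative lists, the Zic family and, by less, several others, and the p53, immediate early, epithelial, germline, Hox, retinoic acid response and trophoblast lists lie to the right in all 3 pairs.

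The same depletion in the WT background gave few calls. There, 6 of 17792 features were called (0.0337%), 2 higher and 4 lower (0.0112% and 0.0225%), and 0 of the 67 replication-dependent histone genes, whose median was -0.03. By class the median there was -0.13 for H2B, with 14 of 18 genes lower, and 0.09 for H4, with 1 of 13 lower. H2B thus lay below H4 in both backgrounds. The median difference between backgrounds was -0.62 for H2B and -0.43 for H4, and no difference between classes was tested. The 67 genes took 0.802 ± 0.0691% of counts in Ctrl and 0.823 ± 0.0288% in dPOLE4 (SD, n = 3), against 0.775 ± 0.0953% and 0.569 ± 0.0136% in the MCM2-2A line. The difference between the 2 effects was tested over 12 libraries with pairs nested in line, and 21 of 19007 features were called (0.11%), 16 with a more negative (0.0842%) and 5 with a more positive effect (0.0263%) in MCM2-2A. Of the 16, 7 were replication-dependent histone genes, namely Hist1h1t, Hist1h2ba, Hist1h2aa, Hist3h2ba, Hist3h2a, Hist1h1c and Hist1h1e, together with H1f0, Lef1 and MMERGLN-int. For Hist3h2ba the effect was -1.28 in MCM2-2A and -0.18 in the WT background, and the difference was -1.09 ± 0.10 (edgeR adjusted p = 5.05e-05). For MMERGLN-int it was -0.65 and 0.03 (difference -0.67 ± 0.06, edgeR adjusted p = 6.03e-05), and for H1f0 -0.85 and 0.01 (difference -0.85 ± 0.10, edgeR adjusted p = 0.000577). Without the block in this test 1 feature was called.

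For other genes the difference between backgrounds was not called. Otx2 was at -0.89 in MCM2-2A and -0.34 in the WT background (difference adjusted p = 0.0158 in edgeR), and Zic2 at -0.76 and -0.36 (adjusted p = 0.0632 in edgeR). Btg2 was at 0.74 and 0.28 (adjusted p = 0.0106 in edgeR), Itgb4 at 0.87 and 0.34 (adjusted p = 0.0276 in edgeR), and Abcb1b at 0.66 and 0.21, with a difference of 0.45 that passed the adjusted p (0.00483 in edgeR) below the fold cutoff. The median in the WT background was 0.08 for the p53 targets (0.26 in MCM2-2A), -0.34 for the formative list of the study (-0.30 in MCM2-2A), 0.20 for the epithelial genes and 0.22 for the trophoblast markers (0.29 for both in MCM2-2A). No difference between these medians was tested. Of the features called higher in MCM2-2A, 88.2% of the 85 tested in the WT background had the same sign there, and 80.0% of the 55 called lower, where 63.8% of all features had. The lines also differ in clone, which cannot be told apart from the MCM2 genotype.

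After 96 h of depletion in the MCM2-2A line, counted in a separate table, 307 of 17421 features were called (1.76%). Replication-dependent histone genes had 7 of 66 called lower (0.511% of features were) and a median of -0.33. Hist3h2ba (-1.08 ± 0.09), Hist1h2ba (-1.37), Hist1h2aa (-1.07), Hist3h2a (-0.74), Hist1h1t (-1.32) and MMERGLN-int (-0.67) were called in both, as was Lef1 (-1.39). H1f0 (-0.56) and Otx2 (-0.58) stayed just inside the fold cutoff at 96 h. The formative list of the study had 4 of 7 tested genes called lower at 96 h, with a median of -0.68 (-0.30 at 24 h). Of the 57 features called lower at 24 h, 55 were tested at 96 h, 16 were called lower there, and 90.9% had the same sign, against 67.6% of all features. Of the 86 called higher, 84 were tested and 9 were called higher there. Btg2 (0.44), Itgb4 (0.58) and Abcb1b (0.42) were above control below the fold cutoff at 96 h, while Jun was at 0.02. The 24 h and 96 h libraries were not tested against each other.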

How the data were processed

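RNA-seq was described for 6 libraries, 3 per group, which the study's methods call biological replicates. Per the authors' methods and the labels, rRNA-depleted total RNA was made into strand-specific libraries, reads were trimmed with cutadapt 4.2, mapped to mm10 with STAR keeping multimapped reads, and counted per gene and per repeat subfamily with TEcount. The deposited values are these raw counts, and the authors tested them with DESeq2. Whether counting used strand is not given in the sources used here. Reads shared by paralogs or repeat copies can be divided among them, which makes single histone genes less certain than class sums.

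Weakly counted features were dropped by the filterByExpr rule, set to a minimum count of 10 and a total of 15, the rest were scaled by TMM over genes and repeats, and tested with edgeR 4.0.16 (R 4.3.3) in a quasi-likelihood model of replicate number and treatment. Calls used a Benjamini-Hochberg adjusted p below 0.01 and a log2 fold change above 0.58 in size. The replicate numbers of the labels paired the libraries, since deviations from the group means correlated at 0.349, 0.140 and 0.294 between same-numbered libraries. Standard errors are the log2 fold change divided by the square root of F. Summed levels were compared by exact permutation. The 96 h table was fitted alone. Of 55487 gene IDs, 55227 matched GENCODE M21.

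The members, lists and rules were chosen with earlier results of these data known. Genes were named if among the largest called changes with separate groups, called members of a list, named by the study, called repeats, or the lowest-p member of a list with no call. On simulated counts for 18171 features of this comparison, 36% of genes changed 1.5-fold, 78% of those changed 2-fold, 100% of those changed 3-fold and 96% of those changed 4-fold were recovered, with 2 unchanged features called. A 1.5-fold change lies at the fold cutoff, so the 36% does not measure sensitivity alone. The alternatives were DESeq2 1.42.0, other scalings, filters, thresholds and thinned counts, no block, and leaving out pairs or single libraries.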

Additional observations from a re-analysis of the deposited data

Results flagged for a closer look

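The effect of POLE4 depletion at 24 h differed between the MCM2-2A line and the WT background for 21 features by the interaction test. The difference (MCM2-2A minus WT background, log2) was -1.67 for Hist1h1t, -1.16 for Hist1h2ba, -1.09 for Hist1h2aa, -1.09 for Hist3h2ba, -0.76 for Hist3h2a, -0.65 for Hist1h1c and -0.59 for Hist1h1e, the replication-dependent histone genes in the set, and -0.85 for H1f0. Trim17 (-0.75) and Gm12260 (-1.13) lie in the Hist3 cluster, where Trim17 overlaps Hist3h2a and Gm12260 overlaps Trim17. Outside the histones the difference was -1.002 for Lef1, -0.67 for MMERGLN-int, -0.71 for Foxn4 and -0.59 for Dis3l, of which Foxn4 and Dis3l were not called within MCM2-2A (-0.38 and -0.40). Gm47295 (-1.04) overlaps the 7SL-type gene Rn7s1, and Gm10259 (-7.23) was not tested within the MCM2-2A pair comparison. The difference was positive for Igfbp3 (0.63), the repeat L1MD (0.63), Lars2 (1.49), Mir6236 (3.55) and Gm24270 (4.96). For these 5 the effect in the WT background was negative, from -0.36 for Igfbp3 and -0.44 for L1MD to -0.82 for Lars2, -1.33 for Mir6236 and -3.73 for Gm24270, and Igfbp3 (0.27) and L1MD (0.18) were not called within MCM2-2A. Groups of 3 libraries were too small for a search for single outlying samples.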

How the results depend on the processing

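The number of calls depended on the pairing, the tool and single libraries, while the median of the replication-dependent histone genes stayed negative, between -0.71 and -0.40, under every alternative run. The 143 called features (86 higher, 57 lower) became 13 (4 and 9) without the replicate block, 54 (24 and 30) by DESeq2 with the block and 83 (37 and 46) by DESeq2 without it, of which 13, 53 and 78 were among the 143. They became 236 (157 and 79) with no filter on low counts, 683 (374 and 309) with no fold cutoff, and 6 (0 and 6) by edgeR's glmTreat against a 1.5-fold change, where 146 features had an unadjusted p below 0.05. Leaving out 1 pair gave 25 to 250 calls (7 to 119 higher and 18 to 131 lower). Leaving out 1 library, without the block, gave 0 to 21 calls by edgeR. Without Ctrl MCM2-2A replicates 1, 2 and 3 these were 2 (1 and 1), 0 and 3 (1 and 2), and without dPOLE4 MCM2-2A replicates 1, 2 and 3 they were 21 (6 and 15), 0 and 6 (2 and 4). In the 2 edgeR fits with 0 calls, the number of features with unadjusted p below 0.05 was 1680 and 1839. Called replication-dependent histone genes, 26 with the block, were 3 without it, 12 by DESeq2 with the block, 10 with robust estimation, 7 to 43 without 1 pair and 0 to 6 without 1 library (1, 0, 1, 6, 0 and 3 in the order above). The p53 median of 0.26 was 0.19 with thinned counts, 0.22 without the replicate 3 pair and 0.20 without Ctrl MCM2-2A replicate 3, and the median of the study's formative list was -0.48 with thinned counts. The 21 features that differed between backgrounds were 13 with 1 block shared by the 4 groups and 1 with no block. Of 54 named features that were called, 43 lost the call without the block, 30 by DESeq2 with the block and 14 with robust estimation. Values near 0 changed sign: Mcm2 was 0.0025 without Ctrl MCM2-2A replicate 1, Pole4 0.013 without dPOLE4 MCM2-2A replicate 1 and between -0.16 and 0.029 without 1 pair (0.029 without pair 1), and L1Md_F 0.055 without Ctrl MCM2-2A replicate 3. H3f3b was -0.0029 by DESeq2 with the block, -0.0028 with DESeq2 size factors, -0.0012 with no filter, -0.011 with thinned counts, between -0.017 and 0.041 without 1 pair, -0.045 and -0.029 without Ctrl MCM2-2A replicates 2 and 3, and -0.093 without dPOLE4 MCM2-2A replicate 1. The causes were not tested. The shallowest library held 13683171 counts, and 36% of simulated 1.5-fold changes were recovered, so small changes can be missed.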
